A study of Mus musculus with 57 samples.

Results

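Markers of lymphatic endothelium and growth factors acting on it were followed through developing respiratory and musculoskeletal tissues of wild-type (wt) and Hoxa5-/- mouse embryos. The group held 10 genes of the 56860 in the deposited tables: Prox1, Flt4, Vegfc, Vegfd, Lyve1, Stab1, Stab2, Pdpn, Ccl21a and Reln. They were taken by gene name, with no threshold on their values, and all 10 were found in both tables. The list was drawn up because Lyve1 and Stab2 were lower in mutant lung, so the genotype values for lung describe what chose the list and are given without a test. The study asked which genes respond to the loss of the homeobox gene Hoxa5 in the tissues where the mutant embryos have defects. PolyA-selected RNA was sequenced in 57 libraries, with E15.5 (embryonic day) trachea, lung and diaphragm and E12.5 lung in one set, and in the other the somites of E10.5 and E12.5 embryos and brown fat taken from between the shoulder blades (iBAT) at E18.5. Each group held 4 libraries, except somites at E10.5, with 4 wt and 3 mutant, and iBAT, with 5 of each genotype. The mutants were homozygous for the null allele Hoxa5tm1Rob, in which a neomycin cassette interrupts the homeobox in every cell of the embryo, and wt and mutant embryos shared the 129/Sv background. The somite libraries were made from blocks of cervical and upper thoracic trunk without spinal cord, limb buds or viscera. The study calls the replicates biological, and litters were not stated. The iBAT sample names carry leading numbers shared between genotypes, whose meaning was not stated.

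Lymphatic vessels arise largely from embryonic veins, where Prox1, a homeobox transcription factor, sets and keeps lymphatic identity. Prox1-expressing cells make Flt4, the receptor for the growth factors Vegfc and Vegfd, and migrate towards sources of Vegfc. Lyve1 is a hyaluronan receptor, Stab1 and Stab2 are scavenger receptors, Pdpn is a surface mucin that binds a platelet receptor, Ccl21a is a chemokine that draws dendritic cells and T cells into lymphatics, and Reln is a secreted glycoprotein. Most of these genes are also active elsewhere: Lyve1 and Stab1 in tissue macrophages, Stab2 and Lyve1 in liver sinusoids, Prox1 in hepatocytes and neurons, Pdpn in alveolar type I cells and mesothelium, and Reln in neurons. In whole tissue, fewer cells of a type and less RNA per cell cannot be told apart.

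The members lie apart from each other in the genome (GRCm39, GENCODE annotation). On the minus strand are Prox1 at chr1:189850232-189902911, Pdpn at chr4:142994001-143026134, Reln at chr5:22089452-22549700, Lyve1 at chr7:110449814-110462446, Stab2 at chr10:86677062-86843889 and Stab1 at chr14:30860970-30890598. On the plus strand are Vegfc at chr8:54530641-54640131, Flt4 at chr11:49500090-49543566 and Vegfd at chrX:163156374-163185646. Pdpn shares chromosome 4 with Ccl21a, and no other members share one.

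The promoters of Lyve1 and Stab2 are shown because the list was chosen on these genes. Each sequence is the 250 bases before the gene's start in the deposited GENCODE annotation (GRCm39), written 5′ to 3′ on the gene's own strand. Both genes lie on the minus strand, the Lyve1 window at chr7:110462447-110462696 and the Stab2 window at chr10:86843890-86844139. Capitals mark matches, on either strand, to 5 motifs that were searched: CAGGAA, the core of ETS sites, AACAAT, a site of SOX factors, AGGTCA, a site of nuclear receptors, TAATTA, a site of homeodomain factors, and AGATAA, a site bound by zinc-finger factors of the GATA family.
Lyve1: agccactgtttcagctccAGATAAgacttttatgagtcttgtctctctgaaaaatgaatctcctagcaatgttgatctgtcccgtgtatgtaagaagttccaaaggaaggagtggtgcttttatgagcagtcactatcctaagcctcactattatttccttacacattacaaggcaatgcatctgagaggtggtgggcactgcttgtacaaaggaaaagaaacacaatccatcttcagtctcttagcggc
Stab2: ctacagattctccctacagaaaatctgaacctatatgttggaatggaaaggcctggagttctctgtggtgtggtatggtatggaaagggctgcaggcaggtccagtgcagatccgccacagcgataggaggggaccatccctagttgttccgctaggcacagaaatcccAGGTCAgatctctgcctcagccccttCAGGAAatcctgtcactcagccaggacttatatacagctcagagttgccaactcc

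The Lyve1 window held AGATAA, 232 bases before the start, and the Stab2 window held AGGTCA, 81 bases before it, and CAGGAA, 55 bases before it, with no overlap between matches. Among 21784 protein-coding promoters of the same length, 9.08% held AGATAA, 12.8% AGGTCA and 24.3% CAGGAA, while 9.27% held AACAAT and 5.0% TAATTA, which neither window held. These matches are letters in a window and not known binding sites.

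Ccl21a has near-identical copies, Ccl21b and Ccl21d, and the letters by which they differ are shown because they decide which reads could be assigned to it. Ccl21a lies at chr4:42772860-42773993 on the minus strand, with Ccl21b at chr4:42255693-42256825 and Ccl21d at chr4:41903610-41904743 on the plus strand (GRCm39). Over the 399 bases of coding sequence Ccl21a differed from both copies by the substitutions T84A and C194T, with positions counted from 1 at the first coding base and the Ccl21a base given first. The windows of 41 bases around them are shown with the differing base in capitals, and the sequence given for Ccl21b is shared by Ccl21d.
Ccl21a at 84: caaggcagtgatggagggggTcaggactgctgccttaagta
Ccl21b at 84: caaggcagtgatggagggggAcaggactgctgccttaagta
Ccl21a at 194: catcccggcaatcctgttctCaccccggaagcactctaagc
Ccl21b at 194: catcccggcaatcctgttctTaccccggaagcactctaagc

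Over the spliced transcript of 870 bases Ccl21a differed from Ccl21b and from Ccl21d at 6 positions, and the latter pair had no substitution between them. A 100-base read could start at 49.7% of positions and still cover a difference. Ccl21b and Ccl21d had 0 counts in all 57 libraries. The study kept reads with a unique place in the genome, and reads from this pair would rarely have one. Their 0 counts therefore do not show that they were silent. The Ccl21a values hold the reads that could be placed on that copy alone. Exons of Prox1, Reln, Stab2 and Stab1 overlap genes on the opposite strand by 112 to 246 bases, and the strand setting of the counting was not stated, so reads in those stretches cannot be told apart.

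Total counts ran from 20552280 to 72991481 per library in the respiratory set and from 18369905 to 28234711 in the other. Hoxa5 itself, in TPM (reads per length of gene, scaled to the same total in every library), fell in the mutants of all 7 contexts, for example from 275 to 71.1 in lung at E12.5 and from 186 to 102 in somites at E10.5, with adjusted p from 2.6e-06 to 0.0475 by edgeR's quasi-likelihood test. Summed markers of skeletal muscle reached 10520 to 28213 TPM in diaphragm, those of brown fat 13649 to 20211 in iBAT, those of alveolar epithelium 1414 to 8527 in lung at E15.5, and those of cartilage 668 to 2979 in trachea. Some libraries stood apart. In mutant lung at E15.5, replicate 4 had 30.7% of its TPM in the rows Rn18s-rs5 and Mir6236, against 0.256% to 3.74% in the other 56 libraries, which lowers the TPM of its other genes, and replicate 3 had 492 TPM of hepatocyte markers against 4.47 to 10.1 in the rest of its group. In diaphragm, hepatocyte markers summed to 9248 TPM in wt replicate 3, 11241 in mutant replicate 3 and 9772 in mutant replicate 4, against 373 to 2230 in the remaining 5 libraries. These rows were chosen after their values were seen, except the hepatocyte list.

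The wt libraries were compared between stages and between tissues. A call here needed at least a 1.5-fold change together with an adjusted p below 0.05 in edgeR. Between E12.5 and E15.5 in lung, 7 of 10 members were called, against 24.6% of all genes tested. Between E10.5 and E12.5 in somites, 6 of the 9 members tested were called, against 42.6%. At E15.5, 6 of 10 were called between trachea and lung, against 30.2%, 6 between diaphragm and lung, against 36.4%, and 3 between diaphragm and trachea, against 32.5%. These 3 contrasts share libraries, and somites and iBAT were sequenced at another center and tabulated separately, so their levels are set beside those of the respiratory tissues without a test.

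**Figure D1:**
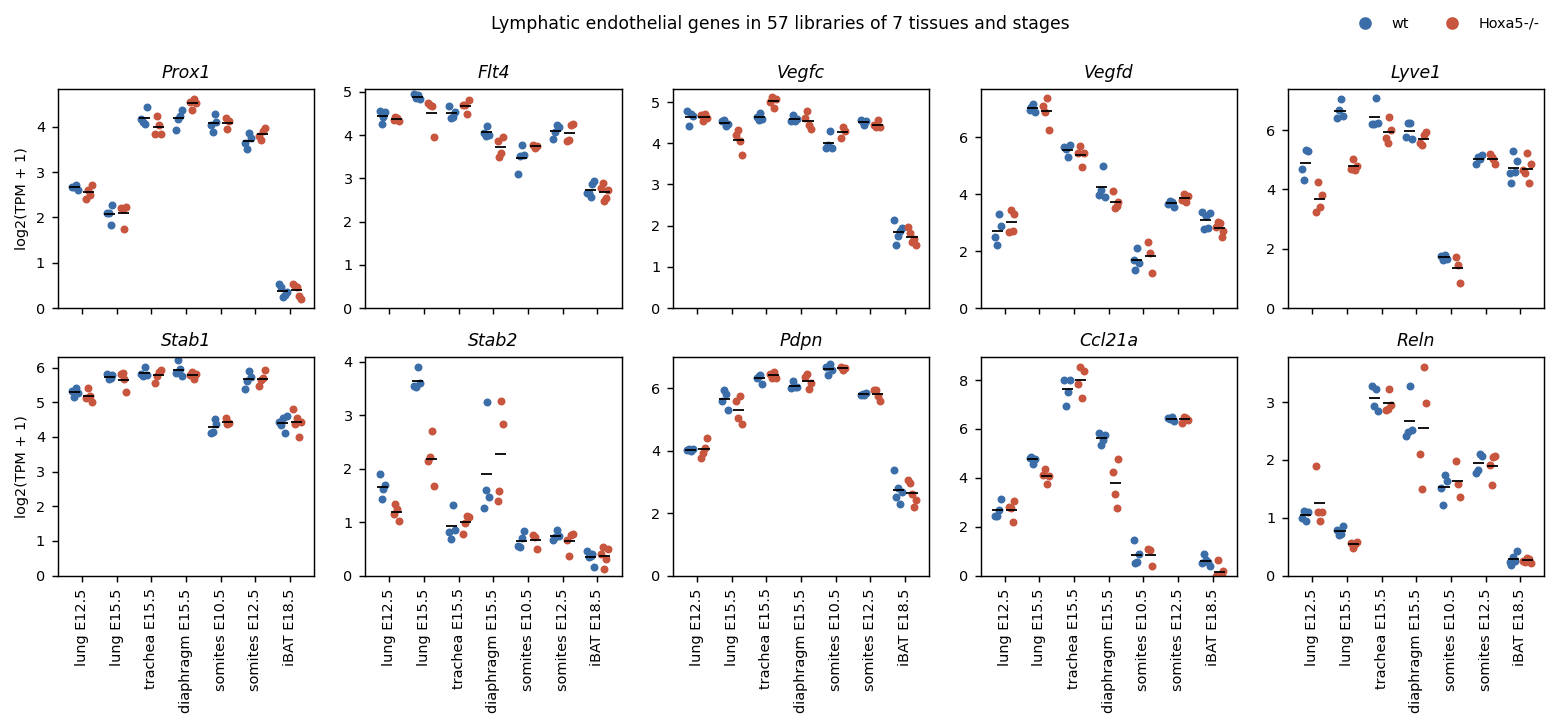
Level of each member in every library, as log2(TPM + 1) on the vertical axis, by context on the horizontal axis, with wt in blue, Hoxa5-/- in red and a black bar at each group's mean. The Lyve1 panel shows all 4 mutant lung libraries below all 4 wt ones at both stages, and the Ccl21a panel shows the same in diaphragm.

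Prox1 was highest in wt trachea (17.4 ± 2.26 TPM, SD, n = 4), diaphragm (17.3 ± 2.23) and somites at E10.5 (15.9 ± 1.99), whose libraries overlapped. It stood at 11.97 ± 1.35 in somites at E12.5 and at 0.303 in iBAT, where it rested on 13 to 32 counts per library. In wt lung the libraries read 5.36, 5.36, 5.55 and 5.11 TPM at E12.5 and 3.29, 3.29, 2.58 and 3.86 at E15.5. All later libraries lay below all earlier ones, and Prox1 fell by 0.75 on the log2 scale (SE 0.12, edgeR adjusted p = 0.000488). At E15.5 the lung was the tissue with the least Prox1, with trachea above it by 2.38 on the log2 scale (SE 0.14, adjusted p = 2.9e-06) and diaphragm by 2.71 (SE 0.13, adjusted p = 3.67e-07).

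The receptor Flt4 had its highest wt level in lung at E15.5 (28.6 ± 1.10 TPM), above every library of trachea (21.8 on average). The E15.5 lung exceeded the E12.5 lung by 0.43 on the log2 scale (adjusted p = 0.000477), which is under 1.5-fold and so not called. In somites Flt4 rose by 0.60 (SE 0.12, adjusted p = 0.000775) from E10.5 to E12.5, just over the fold limit, and it was under that limit by DESeq2 (0.58) and without wt replicate 1 at E10.5 (0.49) or wt replicate 3 (0.55) or 4 (0.56) at E12.5. Across the 7 contexts its wt means spanned 5.01-fold, the second narrowest range of the group after Stab1 (3.26-fold).

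The growth factors differed in how widely they varied. Vegfc was between 21.6 and 24.01 TPM on average in trachea, diaphragm, somites at E12.5 and lung at both stages, with overlapping neighbors, and was 15.2 in somites at E10.5 and 2.63 in iBAT. Vegfd was 4.61, 3.71, 8.85 and 6.32 TPM in the wt lung libraries at E12.5 and 123, 134, 142 and 119 at E15.5. It rose by 4.45 on the log2 scale (SE 0.21, adjusted p = 5.11e-07), the largest stage difference of any member in lung. Vegfd was also lower than in lung in trachea, by a log2 difference of -1.51 (SE 0.099, adjusted p = 4.52e-06), and in diaphragm, by -2.46 (SE 0.22, adjusted p = 1.35e-05), and it rose in somites by 2.32 (SE 0.19, adjusted p = 1.59e-07).

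Of the surface receptors, Lyve1 rose with stage in lung and somites, Stab2 rose in lung and was not tested in somites, and Stab1 rose in somites. Lyve1 averaged 30.3 ± 10.04 TPM in the wt E12.5 lung and 100.4 ± 20.9 in the E15.5 lung, a rise of 1.71 on the log2 scale (SE 0.22, adjusted p = 0.000139). It was 88.6 ± 29.9 in trachea and 63.3 ± 13.03 in diaphragm, and neither differed from lung by a call, with log2 differences of -0.21 (adjusted p = 0.457) and -0.37 (adjusted p = 0.0781). In somites it rose by 3.72 (SE 0.13, adjusted p = 5.3e-11), from 2.29 TPM to 31.8. Stab1 rose in somites by 1.37 (SE 0.11, adjusted p = 1.19e-07) and had wt means between 38.4 and 60.8 TPM in the respiratory tissues, with a log2 difference of 0.42 between the lung stages (SE 0.053, adjusted p = 0.00011) that was under the fold limit.

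Stab2 was highest in lung. Its wt libraries at E15.5 read 10.7, 10.47, 13.98 and 11.2 TPM, above every wt library of every other context, the highest of which was diaphragm replicate 3 at 8.48 TPM. It rose in lung from E12.5 by 2.38 on the log2 scale (SE 0.15, adjusted p = 1.64e-06) and was lower than in lung by a log2 difference of -3.67 in trachea (SE 0.28, adjusted p = 9.5e-06). Stab2 was on average under 1 TPM in trachea, both somite stages and iBAT. In diaphragm it was 1.41, 2.03, 8.48 and 1.77 TPM, where the high library is the one with the high hepatocyte markers, and its difference from lung, -1.47 (SE 0.50, adjusted p = 0.0305), lost its call when any of 7 of the 8 libraries was left out, with adjusted p up to 0.0774.

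Pdpn was highest in somites at E10.5 (97.8 ± 10.52 TPM) and in trachea (78.9 ± 7.20), fell in somites by 0.90 on the log2 scale (SE 0.085, adjusted p = 6.97e-07) and rose in lung by 1.68 (SE 0.13, adjusted p = 6.2e-06). Trachea exceeded lung in Pdpn by 0.61 (SE 0.14, adjusted p = 0.00555), a call lost on the fold limit without wt trachea replicate 3 (0.58) or wt lung replicate 4 (0.52). Ccl21a had the widest range of the group, with wt means spanning 390-fold. Trachea led at 259, 123, 182 and 257 TPM, every library above those of the other contexts, followed by somites at E12.5 (85.1 ± 4.35), diaphragm (48.9 ± 7.40) and lung at E15.5 (26.2 ± 2.41). It rose in somites by 6.49 (SE 0.25, adjusted p = 1.27e-10) from 3 to 12 counts per wt library at E10.5, and in lung by 2.23 (SE 0.19, adjusted p = 8.73e-06). In trachea Ccl21a lay above lung by 2.93 (SE 0.23, adjusted p = 1.22e-05).

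Reln, the last member, was higher in trachea (7.46 ± 1.24 TPM) and diaphragm (5.57 ± 2.06) than in lung at E15.5. The log2 differences were 3.37 (SE 0.14, adjusted p = 5.67e-07) and 3.29 (SE 0.23, adjusted p = 2.81e-06). In lung it was 1.06 TPM at E12.5 and 0.703 at E15.5, a log2 difference of -0.63 (SE 0.13, adjusted p = 0.00309). That call was lost without replicate 2 of either stage (-0.56 and -0.57) and with 1 fit over all groups (adjusted p = 0.178). Prox1, Pdpn, Ccl21a and Reln were all called higher in trachea and in diaphragm than in lung, while Stab2 and Vegfd were called lower in both. In wt libraries the sum of 5 neuron markers was 132 to 271 TPM in trachea. It was 14.3 to 37.3 in diaphragm and 7.40 to 9.16 in E15.5 lung, with Neurod1 at 0 in both. In E10.5 somites it was 746 to 1188. The part of neurons in the Prox1 and Reln levels was not tested.

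**Figure D2:**
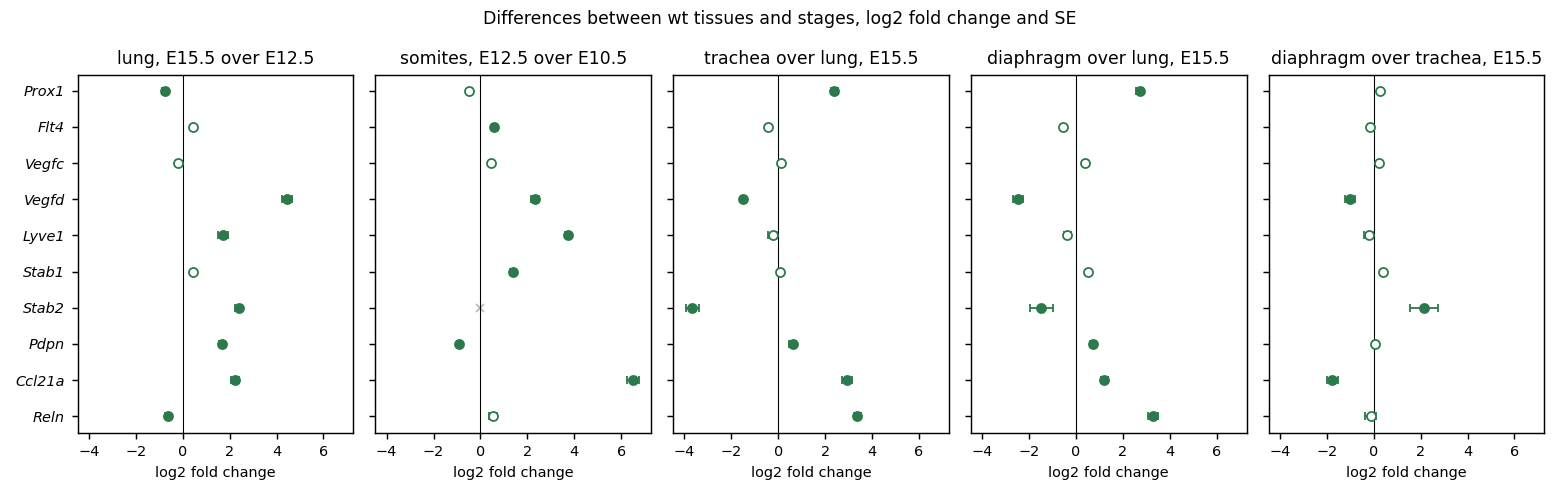
Log2 difference of each member between wt stages or tissues, with bars of 1 SE, in 5 panels for lung E15.5 over E12.5, somites E12.5 over E10.5, trachea over lung, diaphragm over lung and diaphragm over trachea at E15.5. Filled points passed the call, open points did not and a cross marks a member that was not tested. Ccl21a in somites, at 6.49, is the largest difference drawn.

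In mutant lung the values that chose the list were those of Lyve1 and Stab2. At E12.5 Lyve1 was 25.1, 18.7, 39.1 and 38.3 TPM in wt libraries and 8.35, 17.9, 9.68 and 13.2 in Hoxa5-/- libraries. At E15.5 it was 84.1, 100.3, 130.05 and 87.4 in wt and 24.96, 31.2, 24.3 and 26.7 in mutants. All mutant libraries were below all wt libraries at both stages, narrowly at E12.5. The log2 fold change was -1.30 (SE 0.26) at E12.5 and -1.79 (SE 0.18) at E15.5, and the mutant mean was 40.6% and 26.7% of the wt mean. The mutant mean at E15.5 (26.8 ± 3.10 TPM) was below the wt mean at E12.5 (30.3 ± 10.04), with overlapping libraries.

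Stab2 was lower in the same way. Its lung libraries at E12.5 read 2.71, 1.68, 2.06 and 2.23 TPM in wt and 1.21, 1.52, 1.38 and 1.02 in mutants, from 137 to 216 counts per wt library. At E15.5 the mutants read 3.43, 3.68, 5.51 and 2.19, against 10.47 to 13.98 in wt. The groups did not overlap at either stage, and the log2 fold change was -0.74 (SE 0.18) for the earlier and -1.57 (SE 0.18) for the later one. The highest mutant library at E15.5 was replicate 3, which held the hepatocyte markers. Without mutant replicates 3 and 4, an alternative chosen after seeing the data, the fold changes at E15.5 were -1.86 (SE 0.20) for Lyve1 and -1.73 (SE 0.14) for Stab2.

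**Figure D3:**
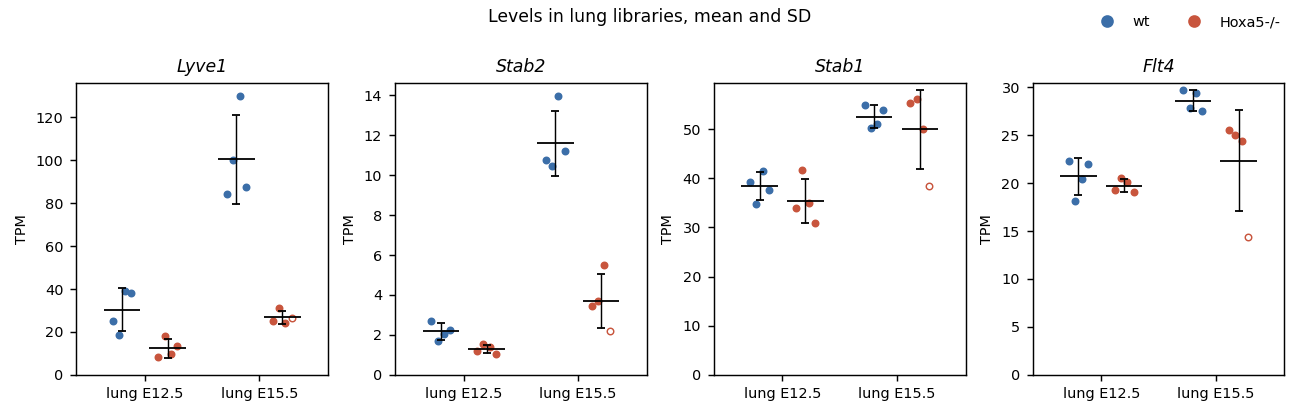
TPM of Lyve1, Stab2, Stab1 and Flt4 in each lung library, with group mean and SD, for wt (blue) and Hoxa5-/- (red) at E12.5 and E15.5. The open circle is mutant replicate 4 at E15.5. Lyve1 and Stab2 separate by genotype at both stages, whereas the Stab1 groups overlap at both.

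The third scavenger or hyaluronan receptor, Stab1, had overlapping groups. It was 55.0, 50.2, 51.1 and 54.0 TPM in wt lung at E15.5 and 55.3, 56.1, 50.1 and 38.5 in mutants, a log2 fold change of 0.02 (SE 0.055), and its value at E12.5 was -0.10. Prox1 overlapped too, its fold change on the log2 scale being -0.12 (SE 0.089) at E12.5 and 0.15 (SE 0.23) at E15.5, where it was -0.07 without mutant replicate 4. For the master regulator and the scavenger receptor the difference between genotypes was within the spread of the libraries.

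Flt4 and its ligand Vegfc separated by genotype at E15.5 by smaller amounts. Flt4 was 29.7, 27.8, 29.4 and 27.5 TPM in wt and 25.6, 25.02, 24.4 and 14.4 in mutants, the last being the library with the large Rn18s-rs5 and Mir6236 share. CPM (counts scaled to library size after TMM correction), which carry that share less, put it at 42.7 against 50.6 to 52.7 in the other mutants, still below the wt libraries at 57.6 to 62.7. The log2 fold change of Flt4 was -0.28 (SE 0.068). Vegfc was 22.1, 22.8, 20.4 and 21.03 TPM in wt and 17.5, 19.2, 15.6 and 12.1 in mutants, with a log2 fold change of -0.34 (SE 0.090). At E12.5 both overlapped, at -0.06 for Flt4 and 0.01 for Vegfc.

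The other ligand and the remaining members showed a mixed picture in lung. Vegfd had a log2 fold change of 0.01 (SE 0.12) at E15.5 and 0.34 (SE 0.27) at E12.5, with overlapping groups. Pdpn was at -0.25 (SE 0.18) at E15.5 and 0.03 at E12.5, with overlapping groups. Ccl21a at E15.5 was 27.3, 28.1, 22.6 and 26.6 TPM in wt and 16.1, 19.6, 12.502 and 15.95 in mutants, a log2 fold change of -0.59 (SE 0.19). Its groups were separate in TPM and touched in CPM, where the mutants reached 4.99 and the lowest wt library was 4.92. Reln at E15.5 was 0.621 to 0.807 TPM in wt and 0.394 to 0.492 in mutants and was not fitted, being under 1 TPM in both genotypes. At E12.5 Reln was 0.920 to 1.18 in wt and 2.74, 1.15, 0.926 and 1.14 in mutants, so its log2 fold change of 0.53 (SE 0.35) became -0.036 without mutant replicate 1, and Ccl21a was at 0.02 with overlapping groups.

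At E12.5, 2 members, Lyve1 and Stab2, had all mutant libraries below all wt libraries in TPM, against 1.67% of genes. At E15.5 these were 5 of the 9 members tested, namely Lyve1, Stab2, Flt4, Vegfc and Ccl21a, against 2.47% of genes tested, and 4 of them, without Ccl21a, in CPM, against 2.40%. Reln, which was too low to be among the genes tested, had separate groups in TPM and not in CPM. Members lower by at least 1.5-fold numbered 2 of 10 at E12.5, against 2.44%, and 3 of 9 at E15.5, against 2.69%. The median log2 fold change of the members tested was -0.02 at E12.5 and -0.28 at E15.5, beside -0.0062 over all genes at E15.5. The list was chosen on these contrasts, so nothing is read from the counts.

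Markers of other cell types were summed beside these lung values. Those of blood endothelium do not exclude lymphatic endothelium, as Kdr, Tek and Tie1 are also in the wider lymphatic list described below. The summed TPM of 13 blood endothelial markers, none of them at 0, was 1768 to 2069 in wt lung at E15.5 and 962 to 1635 in mutants, or 1549 to 1635 without replicate 4, and at E12.5 it was 868 to 1078 and 829 to 923, with overlap. Expressed per 100 units of that sum, Lyve1 was 5.20 ± 0.80 in wt and 1.96 ± 0.59 in mutants at E15.5, while Flt4 was 1.49 and 1.56. Stab2 was also lower on this scale without overlap, at 0.542 to 0.676 in wt and 0.216 to 0.337 in mutants. Vegfd and Stab1 were higher without overlap, Vegfd at 6.44 to 6.93 in wt and 7.61 to 10.2 in mutants and Stab1, narrowly, at 2.47 to 3.05 and 3.06 to 4.003. Their log2 fold changes were 0.01 and 0.02. Vegfc, at 1.13 and 1.14 on average, and Ccl21a, at 1.09 to 1.51 and 0.764 to 1.66, overlapped on this scale. The sum was itself lower in mutants, so ratios to it rise for genes that did not change. How many of all genes separate on this scale was not counted. At E12.5 the same share for Lyve1 was 2.97 ± 0.74 and 1.41 ± 0.44. The sum of 12 macrophage markers overlapped between genotypes, at 270.3 to 315 TPM in wt and 184 to 310 in mutants at E15.5, or 266 to 310 without replicate 4, and 182 to 202 and 106 to 223 at E12.5. The sum of 5 markers of sinusoidal endothelium overlapped too, at 28.9 to 32.2 TPM in wt and 30.9 to 38.7 in mutants at E15.5. At E12.5 it was 27.1 to 36.9 and 22.8 to 35.8. Mrc1 is in both the sinusoidal and the macrophage list. The part of these cell types in the member values was not tested.

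Outside lung the genotype contrasts were not used to choose the list, and edgeR called no member in any of them. In trachea 0 of 9 tested members were called, against 0.0156% of genes, with 1 member at an unadjusted p under 0.05, against 6.70%. In diaphragm 0 of 10 were called, against 0.594%, with 4 at an unadjusted p under 0.05, as were 2348 of 18019 genes. In somites 0 of 8 at E10.5 (background 0.0215%) and 0 of 9 at E12.5 (0.00529%) were called, and in iBAT 0 of 6 (0.00657%), with 0 at an unadjusted p under 0.05 in each (backgrounds 12.7%, 3.24% and 2.47%). DESeq2, the test the study itself used, called 1 member in diaphragm, Ccl21a, against 2.25% of genes. It called 0 in trachea (background 0.271%), somites at E10.5 (0.0969%) and E12.5 (0.0106%) and iBAT (0.0263%). The median log2 fold change of the members was -0.07 in trachea, -0.11 in diaphragm, 0.11 and 0.01 in somites and -0.05 in iBAT, beside -0.0052 to 0.0049 for the median of all genes in those contexts.

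**Figure D4:**
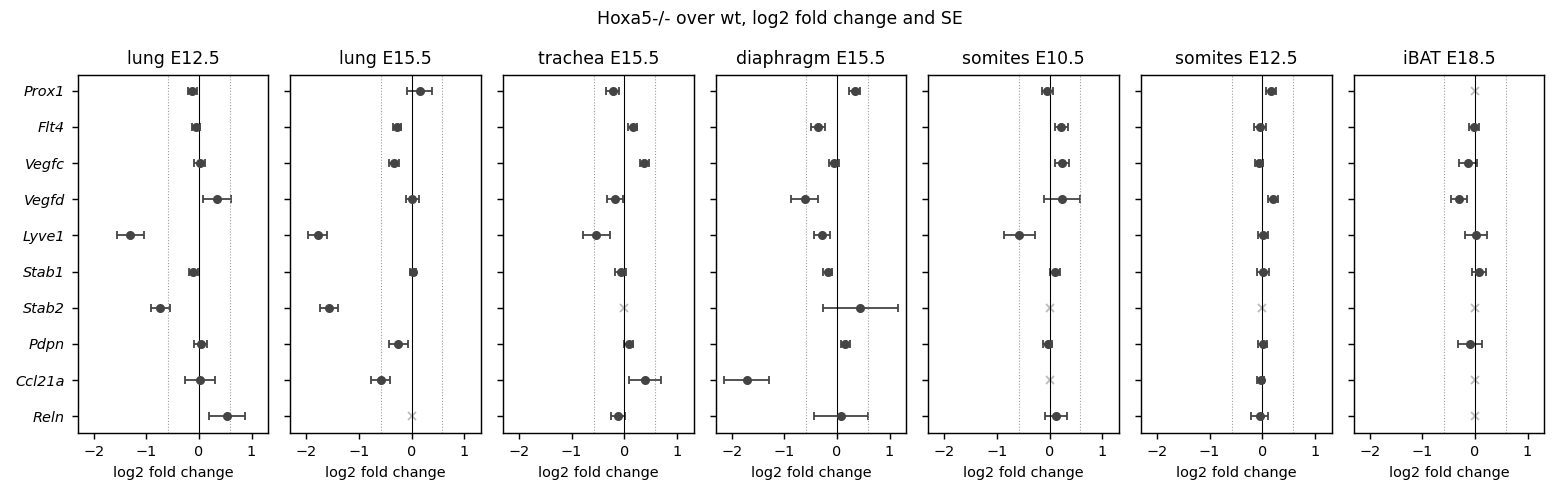
Log2 fold change of each member, Hoxa5-/- over wt, with bars of 1 SE, in 7 panels by context, with dotted lines at 1.5-fold and crosses for members not tested. Lyve1 lies past the line in both lung panels, at -1.30 and -1.79, and Ccl21a lies past it in diaphragm, at -1.72.

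In diaphragm the largest member difference was in the chemokine. Ccl21a was 56.04, 39.9, 45.9 and 53.7 TPM in wt diaphragm and 18.02, 9.27, 5.85 and 26.5 in Hoxa5-/- diaphragm, from 285 to 471 and 49 to 283 counts. All mutant libraries were below all wt libraries, as they were for 4.62% of genes, and the mutant mean was 30.5% of wt. The log2 fold change was -1.72 (SE 0.43), with an edgeR adjusted p of 0.133, which misses the threshold, and a DESeq2 adjusted p of 0.00149. Over the alternatives tried the adjusted p ran from 0.00149 to 0.337. In the libraries without high hepatocyte markers, an alternative chosen after seeing the data, it was -1.93 (SE 0.32, edgeR adjusted p = 0.0554).

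Flt4 was the other member whose diaphragm groups did not overlap in TPM, at 15.6, 14.7, 17.6 and 14.97 in wt and 13.7, 10.2, 10.96 and 14.5 in mutants. In CPM the groups overlapped, with the highest mutant at 38.1 and the lowest wt library at 35.7, and the log2 fold change was -0.36 (SE 0.13, adjusted p = 0.292). Prox1 had the opposite sign, at 14.3, 17.1, 17.96 and 19.7 TPM in wt and 22.5, 19.6, 23.4 and 21.9 in mutants. A single pair of libraries overlapped, and its log2 fold change was 0.34 (SE 0.099, adjusted p = 0.2). The ligand Vegfd, at -0.62 (SE 0.25, adjusted p = 0.355), was 14.9, 16.98, 30.6 and 14.1 in wt and 16.4, 10.4, 10.95 and 12.1 in mutants, with overlap. Its highest value came from wt replicate 3, and its log2 fold change was -0.23 (SE 0.20, adjusted p = 0.637) without the 3 libraries of high hepatocyte markers.

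Lyve1 and Stab2, the genes lower in mutant lung, did not pass in diaphragm. Lyve1 was 53.3, 74.8, 74.3 and 50.8 TPM in wt and 46.5, 44.5, 56.5 and 60.1 in mutants, a log2 fold change of -0.28 (SE 0.15, adjusted p = 0.471). Stab2 was 1.41, 2.03, 8.48 and 1.77 in wt and 1.62, 1.99, 8.60 and 6.16 in mutants. Its 3 high libraries were wt replicate 3 and mutant replicates 3 and 4, those with high hepatocyte markers, and its log2 fold change of 0.45 (SE 0.71, adjusted p = 0.823) became 0.01 without them. Reln was high in the same libraries, at 8.65 in wt replicate 3 and 11.2 and 6.93 in mutant replicates 3 and 4 against 1.82 to 4.71 elsewhere, and its log2 fold change went from 0.07 (SE 0.51, adjusted p = 0.964) to -0.88 (SE 0.23, adjusted p = 0.179) without them. The sum of 5 neuron markers, of which Neurod1 was at 0, was also lower in mutant diaphragm, at 14.3 to 37.3 TPM in wt and 2.91 to 4.08 in mutants without overlap, and Prox1 and Reln are active in neurons too. The part of liver or nerve tissue in these values was not tested. The remaining members, Stab1, Vegfc and Pdpn, had log2 fold changes of -0.17, -0.05 and 0.16 in diaphragm.

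**Figure D5:**
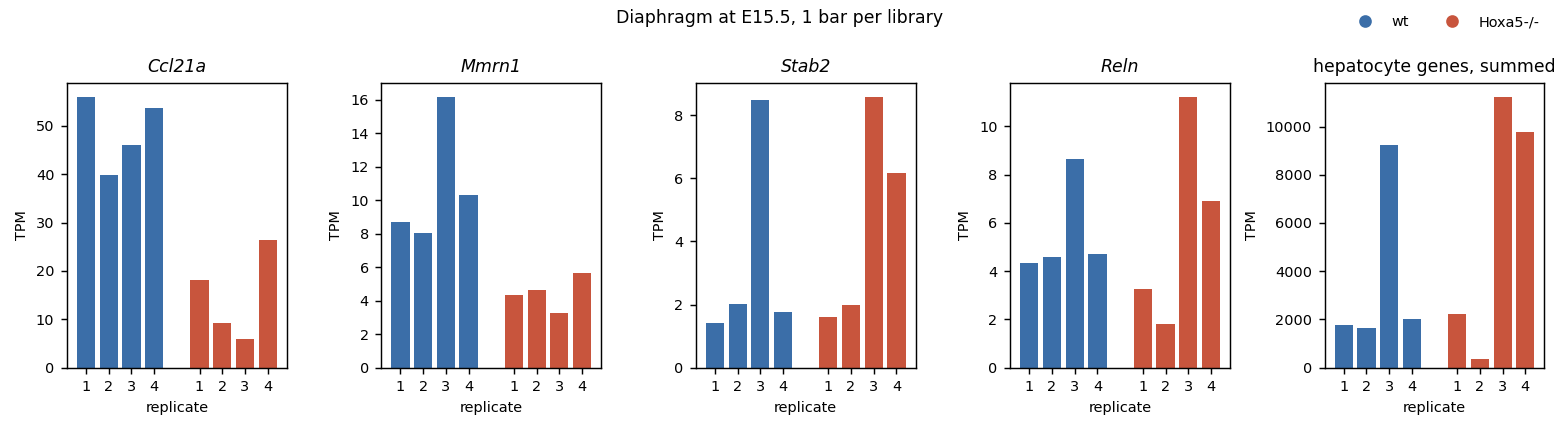
TPM of Ccl21a, Mmrn1, Stab2, Reln and the summed hepatocyte markers in each diaphragm library, wt in blue and Hoxa5-/- in red, as bars from 0. Stab2, Reln and the hepatocyte sum are high in the same 3 libraries, and Ccl21a and Mmrn1 are lower in all 4 mutants than in any wt library.

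Mmrn1, a protein of lymphatic endothelium and platelets in the wider lymphatic list, was singled out after its values were seen. It was 8.70, 8.03, 16.2 and 10.3 TPM in wt diaphragm and 4.34, 4.63, 3.27 and 5.67 in mutants, without overlap, with a log2 fold change of -1.27 (SE 0.24, edgeR adjusted p = 0.0659, DESeq2 adjusted p = 3.61e-05). The 13 blood endothelial markers summed to 555 to 726 TPM in wt diaphragm and 423 to 534 in mutants. Per 100 units of that sum, Ccl21a was 8.07 ± 1.57 in wt and 3.03 ± 1.82 in mutants, while Lyve1 was 10.4 and 10.9 and Flt4 was 2.57 and 2.56. Prox1 and Pdpn were higher on this scale without overlap, Prox1 at 2.34 to 3.52 in wt and 4.05 to 5.53 in mutants and Pdpn at 8.92 to 13.4 and 14.7 to 17.8. In TPM the groups of both overlapped, with Pdpn at 63.3 to 74.5 in wt and 62.3 to 86.2 in mutants. The sum was itself lower in mutants without overlap, so ratios to it rise for genes that did not change. How many of all genes separate on this scale was not counted.

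In trachea Vegfc was the member with the smallest p. It was 23.99, 22.6, 25.8 and 23.2 TPM in wt and 30.97, 34.1, 27.9 and 32.5 in Hoxa5-/-, with all mutants above all wt libraries, as for 2.08% of genes. The log2 fold change was 0.38 (SE 0.092), under 1.5-fold, with an adjusted p of 0.602 by edgeR and 0.0297 by DESeq2, and from 0.0297 to 0.997 over the alternatives tried. Ccl21a was 259, 123, 182 and 257 in wt and 229, 370.0, 154 and 333 in mutants, with overlap and a log2 fold change of 0.40 (SE 0.31, adjusted p = 0.795). Lyve1 was 73.7, 73.1, 133.5 and 74.2 in wt and 52.5, 46.1, 85.5 and 63.4 in mutants, also with overlap, at -0.53 (SE 0.26, adjusted p = 0.762). The other 6 tested members in trachea had log2 fold changes from -0.22 for Prox1 to 0.16 for Flt4.

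The genotype effect was compared between diaphragm and trachea with an interaction term over both tissues. No member of 10 was called, against 0.439% of genes, with 4 at an unadjusted p under 0.05, against 9.07%, and 1 by DESeq2, against 1.86%. For Ccl21a the difference of effects, diaphragm minus trachea, was -2.08 (SE 0.55, edgeR adjusted p = 0.137, DESeq2 adjusted p = 0.00961). Without diaphragm mutant replicate 4 it was -2.55 with an edgeR adjusted p of 0.049, and the adjusted p ran up to 0.268 over the alternatives. Between the somite stages 0 of 9 members were called for a difference in genotype effect, against 0.0147%, with 0 by DESeq2, against 0.0833%. At an unadjusted p under 0.05 there was 1, against 14.3%, namely Lyve1, whose effect at E12.5 minus E10.5 was 0.59 (SE 0.27, adjusted p = 0.344).

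No member passed the test in somites or iBAT. At E10.5 Lyve1 was 2.41, 2.11, 2.47 and 2.17 TPM in wt and 2.27, 1.75 and 0.795 in mutants, a log2 fold change of -0.58 (SE 0.29, adjusted p = 0.398), and the fold changes of the tested members ran from that value to 0.23. At E12.5 they ran from -0.06 to 0.20 with a smallest adjusted p of 0.999, with Lyve1 at 31.8 ± 2.93 in wt and 32.02 ± 3.201 in mutants. In iBAT they ran from -0.31 for Vegfd to 0.08 for Stab1, and Lyve1 was 26.3 ± 8.01 and 25.7 ± 7.28. Prox1, Stab2, Ccl21a and Reln were under 1 TPM in iBAT and were not tested there.

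The wider lymphatic list held 30 other genes of lymphatic specification, growth factor signaling and valves. edgeR called none of them by genotype in any of the 7 contexts. At an unadjusted p under 0.05, 12 of 29 tested were lower and 0 higher in diaphragm, 9 lower and 5 higher of 29 in lung at E15.5, and 10 higher and 0 lower of 28 in somites at E10.5. The counts higher and lower were 1 and 5 in trachea, 4 and 2 in lung at E12.5, 0 and 4 in somites at E12.5 and 1 and 0 in iBAT. Over all genes, the share at that p in either direction was 2348 of 18019 in diaphragm, 6.32% and 8.01% in lung at E15.5 and E12.5, 12.7% and 3.24% in somites at E10.5 and E12.5, 6.70% in trachea and 2.47% in iBAT. The median log2 fold change of the list was -0.14 in diaphragm, -0.03 in lung at E15.5 and 0.23 in somites at E10.5.

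The blood endothelial markers had the same signs in these contexts, but Kdr, Tek and Tie1 are in both lists, so the lists are not independent. Of the 13, 10 were lower at an unadjusted p under 0.05 in diaphragm and 10 in lung at E15.5, and 8 were higher in somites at E10.5, with medians of -0.32, -0.31 and 0.27 and none called by edgeR, beside the same shares over all genes. DESeq2 called 0.467% of genes in lung at E15.5, among them Sox18, a transcription factor upstream of Prox1, which was lower (131 to 81.9 TPM, log2 fold change -0.62, edgeR adjusted p = 0.249, DESeq2 adjusted p = 0.00496). Its mutant libraries read 94.8, 92.4, 98.3 and 42.2 TPM, against 113 to 147 in wt. The lowest was replicate 4, with the large Rn18s-rs5 and Mir6236 share. DESeq2 also called Clec1b, the platelet receptor of Pdpn, lower there (-0.66, DESeq2 adjusted p = 0.0361). It called Foxc1, a forkhead factor, higher there (1.43 to 3.38 TPM, 1.34, SE 0.26, edgeR adjusted p = 0.145, DESeq2 adjusted p = 0.000313). In diaphragm Nrp2, a co-receptor of Flt4, had an edgeR adjusted p of 0.0382 at -0.46 (SE 0.07), which is under 1.5-fold. All 4 were picked once their values were known.

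The genes that varied most like the members were sought within groups, as the correlation of each gene's deviations from its group mean over the 32 respiratory libraries and 18322 genes. Lyve1 was most like Cd86 (r = 0.74), Usp18 (0.73), F13a1 (0.72), Afap1l2 (0.72) and Aqp4 (0.71), of which Cd86 and F13a1 are genes of macrophages. With Mrc1, a macrophage receptor named after its values were seen, Lyve1 had r = 0.63, and with Csf1r, another gene of macrophages, 0.38. In the 25 other libraries Lyve1 had r = 0.46 with Cd86, -0.04 with Usp18, 0.74 with F13a1, 0.31 with Afap1l2, 0.71 with Mrc1 and 0.53 with Csf1r, and Aqp4 was too low to be compared. Flt4 was most like Plxnd1 (0.85), Cldn5 (0.84), Glul (0.83), Tie1 (0.83) and Mmrn2 (0.83), most of them endothelial. Stab2 was most like Nrn1 (0.92), Hpn (0.92), Atp7b (0.92), Mlxipl (0.91) and Arrb1 (0.91), several of them liver genes. Prox1 was most like Rhox5 (0.73), an unnamed gene (ENSMUSG00000120395, 0.72), Gm17300 (0.71), Snhg4 (0.69) and Nap1l5 (0.68). With the endothelial markers Pecam1 and Cdh5, Prox1 had r = -0.51 and -0.47, and 0.27 and 0.51 in the 25 other libraries. With Mmrn1, of the wider lymphatic list, Prox1 had 0.42, and 0.34 in the 25 other libraries. Its r with the hepatocyte marker Alb was -0.37 in the respiratory libraries. With the skeletal muscle marker Myog it had 0.17, and 0.63 in the 25 other libraries. These markers were named after their values were seen. Between members r was 0.40 for Lyve1 and Stab2, 0.72 for Stab2 and Reln, and -0.04 for Lyve1 and Prox1. The points share depth, tissue makeup and the libraries that stood apart, so these values are descriptions.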

How the data were processed

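Per the labels and the study's methods, the authors used Trim Galore 0.6.5 for trimming, STAR 2.7.9a for alignment to GRCm39 (release 109, with curated Hox genes) and featureCounts 2.0.3 for counting reads per gene. Reads were 100 bases single-end in the respiratory set and 150 bases paired-end in the other. They deposited raw counts per gene and, in separate tables, TPM, which divide counts by gene length and set each library to the same total.

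Genes with a mean of at least 1 TPM in either group were tested on the deposited counts with edgeR 4.0.16 (R 4.3.3, quasi-likelihood test, TMM scaling, Benjamini-Hochberg adjustment), fitted per comparison. Calls needed a change of 1.5-fold and an adjusted p below 0.05. DESeq2 1.42.0 and other settings were alternatives, and the tests were checked on simulated counts. The study itself tested genotypes with DESeq2 1.42.0, the same TPM filter and the same limits. DESeq2 called 406 genes by genotype in diaphragm and 52 in trachea, against 107 and 3 by edgeR. Levels are TPM means ± SD over libraries, and counts limit the precision of low genes. Same-numbered wt trachea and lung libraries at E15.5 deviated together (r 0.118 to 0.472), so the numbers pair there, and a replicate block left that count at 6. In iBAT, wt and mutant libraries with the same replicate number had r 0.072 to 0.259. A block on the leading numbers of the iBAT sample names left the count of called members there at 0. Sequences came from the GRCm39 genome, at positions in the deposited GENCODE annotation. Protein sequences were not used here.

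The members, gene lists and tests were chosen with earlier results of these data known. Members are named by the list, the genes most like them by rank of r.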

Additional observations from a re-analysis of the deposited data

Results flagged for a closer look

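Of 130 groups of 4 or 5 libraries examined, 1 for each member and group, 10 had a library far from the rest in TPM, where chance gives about 1 in 20. In trachea, wt replicate 3 was high for Lyve1 (133.5 against 73.1 to 74.2) and for Stab1 (63.9 against 53.1 to 54.8). In diaphragm, wt replicate 3 was high for Stab2 (8.48 against 1.41 to 2.03) and Reln (8.65 against 4.35 to 4.71), and this library held high hepatocyte markers. Also in diaphragm, wt replicate 2 was high for Pdpn (74.5 against 63.3 to 65.0). In mutant lung at E15.5, replicate 4 was low for Flt4 (14.4 against 24.4 to 25.6) and replicate 3 was low for Prox1 (2.36 against 3.53 to 3.69). In mutant lung at E12.5, replicate 1 was high for Reln (2.74 against 0.926 to 1.15). In somites at E10.5, wt replicate 3 was high for Vegfc (18.7 against 13.7 to 14.5), and in mutant iBAT replicate 2 was high for Ccl21a (0.539 against 0 to 0.145, from 4 counts).

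Vegfc, the main ligand of Flt4, had opposite orders of genotypes in trachea and lung at E15.5. Every mutant trachea library was above every wt one, with a mutant mean of 131.2% of wt, and every mutant lung library was below every wt one, with a mutant mean of 74.4%. The difference between the tissues was not tested, since the lung contrast was among those the list was chosen on.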

How the results depend on the processing

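The diaphragm count of 0 called members became 1, Ccl21a, under DESeq2 (log2 fold change -1.72, adjusted p = 0.00149), under 1 fit for all groups (-1.70, adjusted p = 0.00286) and with the replicate block (-1.89, adjusted p = 0.0197), although the numbers were not shown to pair the diaphragm libraries. The count for the difference between diaphragm and trachea went from 0 to 1 under DESeq2 and ranged from 0 to 1 when single libraries were left out. Without the fold limit, 5 members instead of 3 passed between wt diaphragm and trachea. Stab2 in diaphragm changed sign without mutant replicate 3 (-0.029), with a range of -0.029 to 1.40 over single libraries left out. Reln in diaphragm changed sign with the replicate block (-0.18), without the 3 libraries of high hepatocyte markers (-0.88, added after seeing the data) and without some single libraries (-0.45 to 0.39). The cause was not tested. Under the alternatives that leave out no single library, 91 of 96 counts of members stayed within 1.5 times the reported one. Leaving out single libraries gave 6 to 7 called members between lung stages, 5 to 7 between somite stages, 5 to 6 between trachea and lung, 5 to 7 between diaphragm and lung, and 2 to 3 members at least 1.5-fold lower in mutant lung at E15.5. With 3 to 5 libraries per group and 2 to 12 counts for Ccl21a in somites at E10.5, small differences in low genes were not detectable at this depth. Among called wt differences of single members, 191 of 196 values kept their call under settings that leave out no single library, and 210 of 224 when 1 was left out.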

Other observations

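Mmrn1, chosen after its values were seen, had the opposite order of genotypes in lung at E15.5 and in diaphragm. Its wt lung libraries read 59.4, 53.9, 33.8 and 61.7 TPM and its mutant lung libraries 75.1, 89.8, 59.5 and 64.3, with overlap and a log2 fold change of 0.58 (SE 0.20, edgeR adjusted p = 0.617), whereas in diaphragm all mutant libraries were below all wt ones. The difference between the tissues was not tested.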
